A study of Secale cereale x Triticum turgidum subsp. durum with 48 samples.

Results

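Stem of triticale, a cereal bred from durum wheat and rye, was compared between booting (Zadoks stage 45) and early tillering (Zadoks stage 21). The Zadoks scale numbers the steps of cereal development. The comparison took the arrays titled Stem45 and Stem21, 6 of the 48 arrays in the series, with 3 at each stage. Each array was an Affymetrix Wheat GeneChip hybridised with RNA of 1 biological replicate, as the labels call it. The other arrays hold later stem (stages 59 and 75), leaf, coleoptile, root and seed tissues, and are used below as points of comparison.

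Both stem groups came from the cultivar AC Certa, grown in a chamber under a fixed day length and temperature, and no treatment, transgene or mutation is given for any sample. The tissue was internode taken above the crown and up to the second node. Stem and leaf RNA came from the same column kit, and all stem RNA had a second clean-up against carbohydrates. The labels do not say how many plants made up a replicate or whether plants were shared. The p-values therefore measure the spread between arrays within groups, pooled over all 16 groups of the series, and not a known spread between plants.

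As background, a cereal stem at tillering is a stack of very short, unelongated internodes at the crown, wrapped in the bases of young leaves. By booting the lower internodes have elongated through division and expansion of cells in a zone near each node, and their older parts lay down thick lignified walls and store sugars. Elongation is known to draw on gibberellin, wall-loosening enzymes, cortical microtubules that guide cellulose synthesis, and sucrose brought by the phloem.

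At booting the stem had a different transcript pattern from that at tillering in 12.6% of the probe sets tested. Sucrose synthase, glucose-6-phosphate dehydrogenase, ubiquitin and 1 of the 2 S-adenosylhomocysteine hydrolase probe sets rose, while catalase, fructose-bisphosphatase and a glyceraldehyde-3-phosphate dehydrogenase fell. Xyloglucan endotransglycosylase, which loosens walls during growth, was lower on every booting array than on any tillering array. Its difference of -0.57 on the log2 scale did not pass the test. The largest falls belonged to probe sets that were also bright in coleoptile and young leaf, and the largest rises to probe sets that mostly stayed bright at heading.

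Values are signals on the log2 scale after RMA (robust multi-array average), where 1 unit is a 2-fold difference. A probe set, the group of short probes that reads 1 transcript, was called where limma gave an adjusted p (Benjamini-Hochberg) under 0.05 and the log2 difference was 1 or more in size. Differences are stage 45 minus stage 21. By this rule 7711 of 61115 tested probe sets (12.6%) were called, 4170 of them higher (6.82%) and 3541 lower (5.79%) at stage 45. RMA gives all arrays a like distribution, so a shift of the bulk of transcripts would be hidden. With each array centred instead on its hybridisation spikes, the median of all probe sets moved by 0.18. Then 5612 were higher against 2929 lower, so the higher share of the calls was 65.7% in place of 54.1%. Quantile normalisation gave 3675 higher and 3627 lower (50.3% higher). The spikes were read from the RMA values as well. These settings therefore show how the split depends on scaling, and do not measure a shift of the bulk. These are bulk samples, in which fewer cells of a type and less RNA per cell cannot be told apart.

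**Figure D1:**
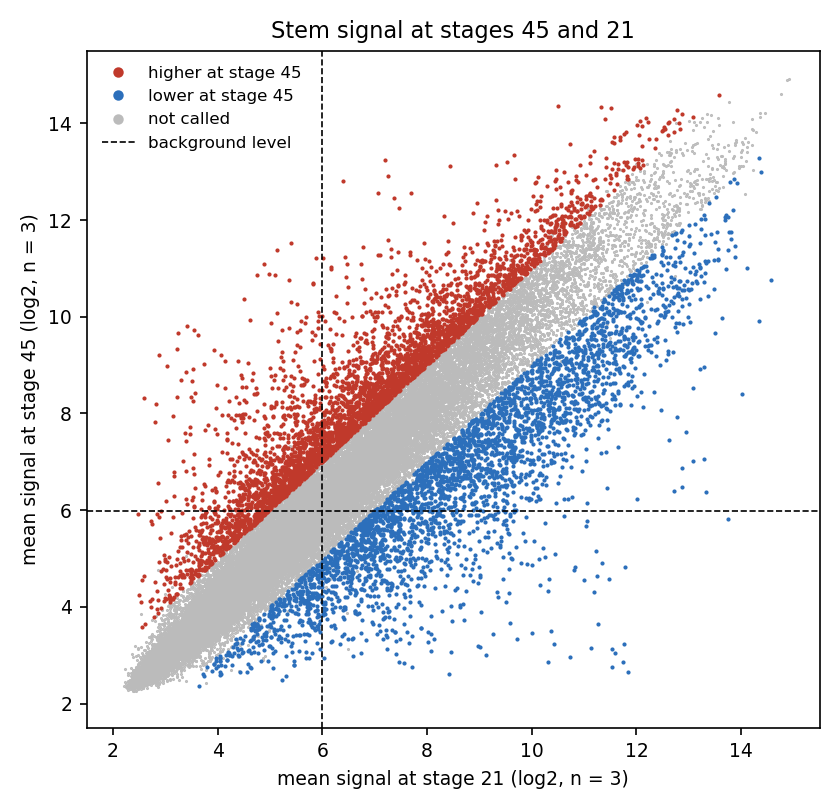
Mean signal of each tested probe set in stem at stage 45 (vertical axis, log2, n = 3) against stage 21 (horizontal axis, log2, n = 3), with calls coloured and the background level of 5.99 dashed on both axes. The 4170 higher probe sets lie above the diagonal and the 3541 lower ones below it, and the lower ones reach farther from it.

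The falls were larger than the rises and, by the rule above, fewer. Among called probe sets the median difference was 1.38 for the rises and -1.77 for the falls, and the extremes were 6.42 and -9.18. At a log2 difference of at least 2, 824 probe sets (1.35%) were higher and 1424 (2.33%) were lower, so the rises then made up 36.7% of the calls. At a difference of at least 6 there were 12 rises and 30 falls, and beyond 7 there were 0 rises and 12 falls. Over all tested probe sets the middle 50% of differences lay between -0.21 and 0.27, around a median of 0.

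The arrays of a stage were close to each other. Correlations over all tested probe sets were 0.988 to 0.994 within a stage and 0.933 to 0.935 between the stages, and the median SD of a probe set was 0.131 at stage 45 and 0.134 at stage 21. Every stage 45 array lay above every stage 21 array, or below it, for 45.9% of all tested probe sets (24.9% above and 21% below). Among the called probe sets this held for 4102 of the 4170 rises and 3507 of the 3541 falls.

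RNA checks on the array moved with stage for some genes. The 3' minus 5' difference of CYP86-TA, a cytochrome P450 control, lay between -0.85 and -0.53 at stage 45 and between -0.03 and 0.19 at stage 21. For Sucsyn it lay between 6.93 and 7.51 at stage 45 and between 5.95 and 6.74 at stage 21, with a 5' probe set near or below background. For actin it lay between -1.28 and -1.09 at stage 45 and between -1.06 and -0.88 at stage 21, and for G-6-PDH, Ubiquitin, gapdh and ef1a the ranges of the stages overlapped. The poly-A spikes, control transcripts on the array, were lower at stage 45 for lys, phe and thr. Their ranges were 6.93 to 7.29 (lys), 7.82 to 8.06 (phe) and 7.8 to 8.07 (thr) at stage 45. At stage 21 they were 7.35 to 7.67, 8.08 to 8.35 and 8.13 to 8.31 in the same order. For the dap spike the stages overlapped. The part of these checks in the results was not tested. The 18SrRNA probe set, which reads a ribosomal RNA, averaged 13.17 ± 0.02 (SD, n = 3) in stem at stage 45 and 13.28 ± 0.05 (SD, n = 3) in stem at stage 21, against group means of 5.25 in root, 6.02 in coleoptile and 7.67 in leaf at stage 13. Stem libraries therefore carried more of this signal than those organs, and its part in comparisons of stem with them was not tested. The tissue label could not be checked against the markers listed beforehand for fibre, mesophyll or dividing cells, because none of them is named among the annotated probe sets. A few other genes linked to green tissue are named and are described below.

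Gene names were available for few probe sets. Platform annotation gave 1 gene to 1273 of the tested probe sets, for 771 genes, and most of these carry a locus symbol without a role. Of the 1273 probe sets, 277 were called (21.8%, against 12.6% of all tested), with 150 higher and 127 lower. These shares are not at equal signal. Among all tested, 0.619% were called below a log2 level of 4 and 33.6% between 8 and 10. Annotated probe sets were more often above background in at least 1 stem stage, 760 of 1273 against 21911 of 61115. Whether annotated probe sets changed more at equal signal was not tested. By gene, 116 had at least 1 rise, 95 had at least 1 fall and 0 had both. Only 13 genes had a symbol that names a product, and all of them are accounted for below, a set taken after the annotation was read. The array's own control IDs add 8 wheat genes, which were tested in a second fit with p-values adjusted over them and all other probe sets together.

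Sucrose synthase (Sucsyn) splits sucrose into fructose and UDP-glucose, the sugar donor for cellulose. Its 3' probe set read 12.97, 12.69 and 12.96 at stage 45, against 9.80, 10.14 and 10.46 at stage 21. Every stage 45 array was above every stage 21 array, as in 24.9% of all tested probe sets. The means were 12.87 ± 0.16 and 10.13 ± 0.33 (SD, n = 3 each), a difference of 2.74 (SE 0.22, 6.68-fold) with a limma adjusted p of 1.26e-12. The middle and 5' probe sets of the gene rose by 3.09 and 1.76 as well (adjusted p 6.58e-10 and 7.03e-05 in limma), although all 3 stage 21 values of the 5' set and 2 of the 3 at stage 45 were below the background level of 5.99. Over stem stages 21, 45, 59 and 75 the 3' probe set averaged 10.13, 12.87, 11.87 and 10.58, so that booting had the highest mean of the 4.

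Glucose-6-phosphate dehydrogenase (G-6-PDH) opens the oxidative pentose phosphate pathway, which supplies reducing power for biosynthesis. Its 3' probe set read 10.30, 10.11 and 10.34 at stage 45 and 8.90, 8.98 and 9.03 at stage 21. The groups did not overlap, and the difference was 1.28 (SE 0.20, 2.43-fold, limma adjusted p 2.31e-06). The 5' probe set rose by 1.12 (limma adjusted p 0.000285), but without replicate 1 of stage 45 its difference was 0.96, under the minimum. The middle set differed by 0.95 and was not called (limma adjusted p 0.00195).

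Ubiquitin, the small protein that tags others for breakdown, read 13.49, 13.41 and 13.40 at stage 45 with its middle probe set, against 12.33, 12.47 and 12.46 at stage 21. The difference of 1.01 (SE 0.10, limma adjusted p 6.1e-11) sat at the minimum for a call, as did the 1.01 of the 3' set. The 5' set differed by 0.93 and was not called. Leaving out single arrays in turn gave 0.92 to 1.11 for the 3' set and 0.97 to 1.04 for the middle set, on either side of the minimum.

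The remaining control genes did not pass. Actin, a cytoskeletal filament protein, read 7.23, 6.87 and 6.76 at stage 45 and 6.82, 6.59 and 6.45 at stage 21 with its brightest probe set, and the groups overlapped (difference 0.33, limma adjusted p 0.153). CYP86-TA differed by 0.01 with its 5' set, by -0.31 with the middle set and by -0.77 with the 3' set (limma adjusted p 0.984, 0.235 and 0.109). The 18SrRNA difference was -0.11 (limma adjusted p 0.939). The gapdh and ef1a probe sets were near or under the background level, and their differences lay between -0.28 and 0.07.

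**Figure D2:**
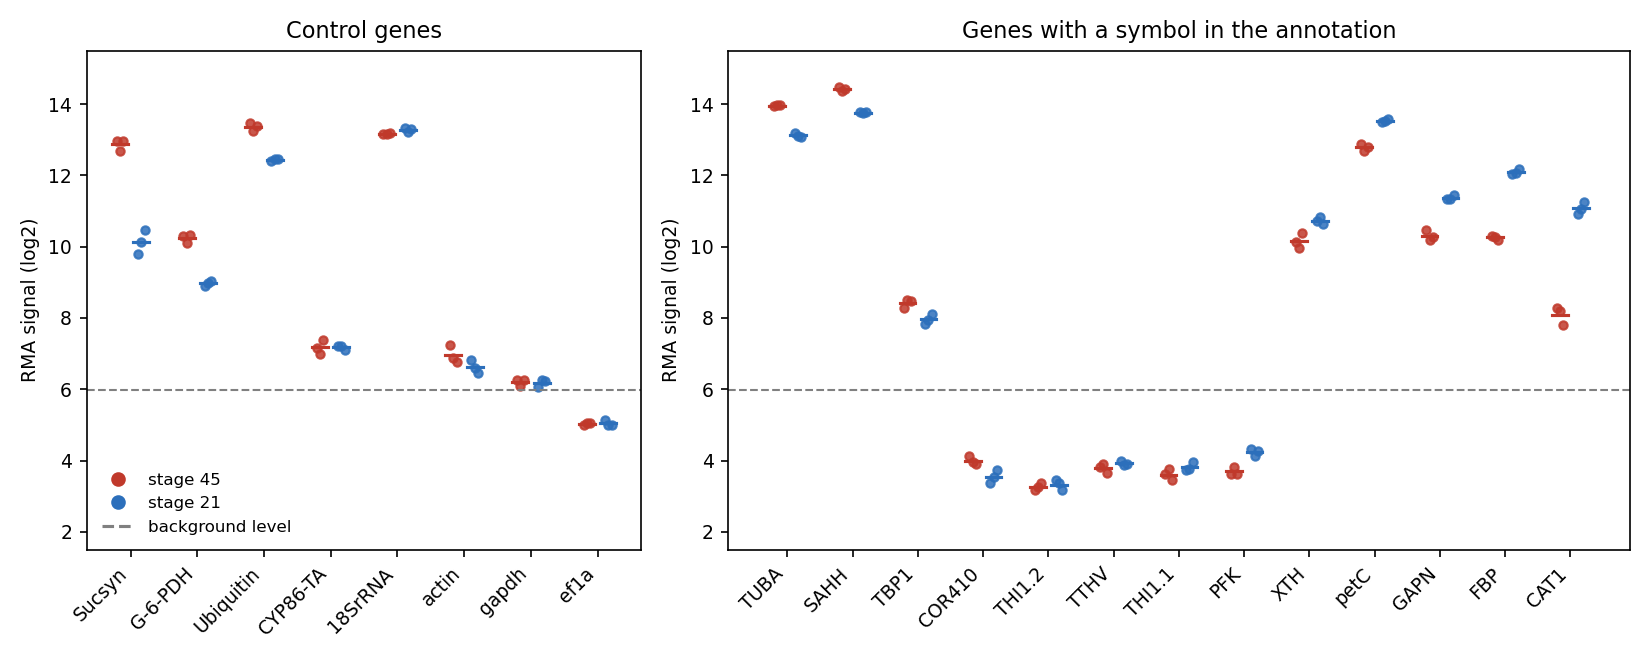
RMA signal (log2) of the 8 control genes and the 13 genes with a product symbol, with 1 point per array, a bar at the mean of 3, and the background level dashed; where a gene has several probe sets, the one with the highest mean over all 48 arrays is drawn. Sucsyn and G-6-PDH stand clearly higher at stage 45, and GAPN, FBP and CAT1 clearly lower.

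Among the 13 symbols, those of growth and methyl transfer were bright at both stages. SAHH, S-adenosylhomocysteine hydrolase, clears the by-product of methyl transfer, a reaction used for lignin precursors among many others. One of its probe sets read 14.61, 14.57 and 14.57 at stage 45 and 13.62, 13.55 and 13.54 at stage 21. That is a rise of 1.01 (SE 0.23, limma adjusted p 0.000729) with no overlap, again at the minimum for a call, since without replicate 3 of stage 21 it fell just short of it. The other SAHH probe set differed by 0.66 (limma adjusted p 0.00606) and was not called. At stage 75 the called probe set had dropped to 11.77.

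TUBA, alpha-tubulin, is the building block of microtubules, which guide the laying down of cellulose. It read 13.95, 13.97 and 13.97 at stage 45 and 13.18, 13.12 and 13.09 at stage 21. The groups did not overlap, but the difference of 0.83 (SE 0.15, limma adjusted p 1.74e-05) was under the minimum of 1. With spike centring it was 1.01 and was called. Its level was 13.89 at stage 59 and 12.13 at stage 75. Signal flattens near the top of the scale, where both TUBA and SAHH lie.

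XTH, xyloglucan endotransglycosylase, cuts and rejoins the xyloglucan that tethers cellulose and is a standard wall-loosening enzyme. Its probe set read 10.13, 9.96 and 10.39 at stage 45 and 10.71, 10.84 and 10.65 at stage 21. All stage 45 arrays were lower, as in 21% of tested probe sets, yet the difference of -0.57 did not pass against the spread over all groups (SE 0.49, limma adjusted p 0.478). It was bright in both stem groups and averaged 11.67 in coleoptile, against 5.96 in flag leaf at stage 49 and 6.0 in stem at stage 75. Its highest group mean was 11.78, in epiderm of the grain. Root averaged 9.95, pericarp 9.36, leaf at stage 13 9.0, endosperm 8.65 and embryo 8.0. TBP1, the TATA-binding protein of transcription initiation, differed by 0.46 (limma adjusted p 0.00251) and was not called.

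CAT1, FBP and GAPN, linked to green tissue, fell. CAT1, a catalase that breaks down hydrogen peroxide, read 8.27, 8.19 and 7.79 at stage 45 and 10.92, 11.06 and 11.26 at stage 21. The difference was -3.0 (SE 0.21, 7.98-fold, limma adjusted p 2.88e-14), with all stage 45 arrays far below all stage 21 arrays. Booting was the low point among the stem stages, since CAT1 averaged 9.51 at stage 59 and 12.64 at stage 75. In leaf it averaged 13.32 at stage 13 and in root 4.55.

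FBP, fructose-1,6-bisphosphatase, works in sugar phosphate metabolism on the way to sucrose and starch. It read 10.31, 10.28 and 10.19 at stage 45 against 12.04, 12.07 and 12.17 at stage 21, a fall of 1.83 (SE 0.22, 3.56-fold, limma adjusted p 1.12e-08). GAPN, a glyceraldehyde-3-phosphate dehydrogenase that makes NADPH, read 10.47, 10.18 and 10.28 against 11.34, 11.33 and 11.44 in the same order, a fall of 1.06 (SE 0.25, limma adjusted p 0.000806). The GAPN groups did not overlap, but the call was lost with spike centring (-0.88) and when replicate 2 of stage 45 was left out (-1.0).

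petC, the Rieske iron-sulfur protein of the chloroplast cytochrome b6f complex, read 12.89, 12.68 and 12.79 at stage 45 and 13.50, 13.53 and 13.58 at stage 21. Its difference of -0.75 (SE 0.19, limma adjusted p 0.00247) had no overlap but was under the minimum. CAT1, FBP, GAPN and petC all averaged between 11.54 and 13.86 in leaf at stage 13 and between 4.51 and 5.27 in root. Their signal was not confined to leaf. In the same order they averaged 11.30, 10.76, 9.73 and 13.19 in coleoptile and 10.23, 8.72, 7.65 and 12.42 in endosperm. The second probe sets of CAT1, FBP, petC and TUBA were under the background level on all stem arrays and differed by -0.31 to 0.20.

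The last 5 symbols could not be measured in stem. COR410, a cold-induced dehydrin, the thionins THI1.1, THI1.2 and TTHV, which are small antimicrobial proteins, and PFK, phosphofructokinase, were under the background level on all 6 arrays. Their differences lay between -0.54 and 0.45, and none was called. Of the gene lists drawn up for this comparison (secondary and primary wall cellulose synthases, lignin, expansins, xyloglucan enzymes, fructan, sucrose, gibberellin, cell cycle, tubulin and actin, flowering, ribosome, photosynthesis, water channels, defence), the members written into them were found by name only for xyloglucan enzymes (XTH), sucrose (Sucsyn), and tubulin and actin. The photosynthesis and defence lists did not hold petC or the thionins, which are described above by their symbols. The other lists were not analysed here.

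The 10 largest rises among called probe sets ran between 6.11 and 6.42 on the log2 scale, with limma adjusted p at most 2.35e-09. On all 3 stage 21 arrays 8 of these probe sets were below the background level, which gives a lower bound in place of a fold. The bounds ran from at least 9.29-fold to at least 46-fold higher at stage 45. Of the 10, all were above background at stage 59 and 7 at stage 75, while 2 were above it in coleoptile, 3 in root, 1 in leaf at stage 13 and 4 in flag leaf at stage 49.

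The ranks rest on fitted differences, which count values below background at face value, and the bounds order the probe sets otherwise. The rise of rank 1, TaAffx.107335.1.S1_at, read 9.65, 9.39 and 9.96 at stage 45 and 3.22, 3.21 and 3.31 at stage 21 (difference 6.42, SE 0.30, limma adjusted p 3.83e-19), at least 12.7-fold higher. Across the 4 stem stages it averaged 3.25, 9.67, 6.38 and 3.53. Its coleoptile mean was 4.31, and all organs other than stem averaged below the background level.

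The next, Ta.23807.3.S1_a_at, read 12.21, 13.19 and 13.05 at stage 45 and 5.80, 6.52 and 6.89 at stage 21 (difference 6.41, SE 0.39, limma adjusted p 6.23e-16). It was bright in coleoptile as well, which averaged 12.66, and stem at stage 59 averaged 13.65, whereas leaf at stage 13 averaged 4.06, root 4.25 and stem at stage 75 3.90. The ID stem of this probe set covers 13 probe sets, of which 8 rose and 0 fell, with differences of 0.23 to 6.41. The annotation ties this ID stem to LOC542817. That gene has 2 probe sets, with differences of 0.18 and 0.87 and no call, and the one at 0.18 lies outside this ID stem.

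Others of the 10 lasted. The rise of rank 3 read 10.27, 9.57 and 9.61 at stage 45 against 3.40, 3.69 and 3.17 at stage 21, and averaged 9.68 at stage 59 and 10.58 at stage 75. LOC780634, for which the files give no role, supplied those of rank 4 and 9. Its rank 4 probe set read 9.32, 9.08 and 9.23 at stage 45 and 2.98, 2.78 and 2.87 at stage 21, at least 9.29-fold higher. That gene was also bright in older leaf, with 11.13 in flag leaf at stage 49 and 9.59 in leaf at stage 23, but averaged 3.10 in leaf at stage 13. LOC780641, at rank 10, had a like pattern, with 11.34, 11.61 and 11.60 at stage 45 against 4.72, 5.77 and 5.74 at stage 21, and 12.28 in flag leaf at stage 49 against 4.98 in leaf at stage 13.

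**Figure D3:**
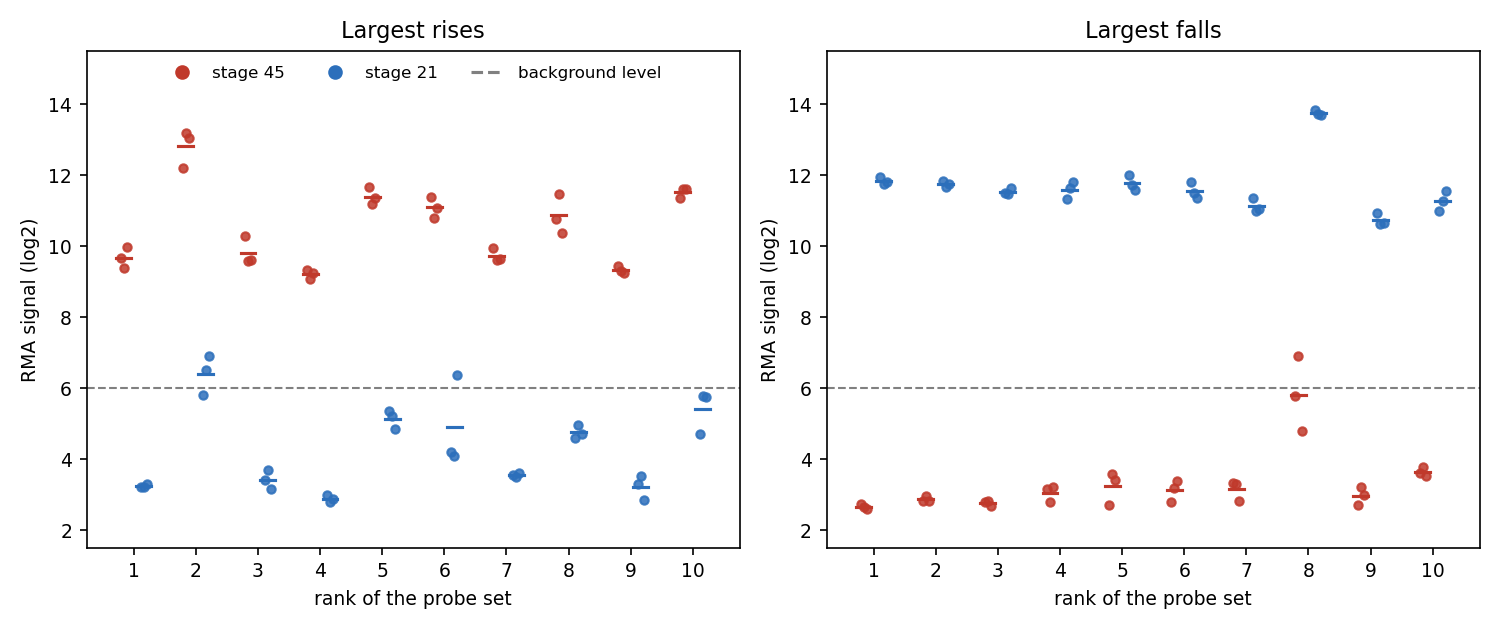
RMA signal (log2) on each array for the 10 largest rises (left) and 10 largest falls (right) by rank, with a bar at the mean of 3 arrays and the background level of 5.99 dashed. Of the rises 8 were below that level on all stage 21 arrays, and of the falls 9 were below it on all stage 45 arrays.

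The 10 largest falls ran between -9.18 and -7.63. On all 3 stage 45 arrays 9 of them were below the background level, and the bounds for these ran from at least 26.7-fold to at least 57.2-fold lower at stage 45. They shared a distribution the rule did not use. All 10 were above background in coleoptile, with means of 8.96 to 11.62, and in leaf at stage 13, with means of 8.12 to 13.55. Of all 1424 falls of at least 2, 83.3% were above it in coleoptile and 85.7% in leaf at stage 13, against 35.1% and 33.5% of all tested. These shares are not at equal signal. The falls were chosen for a high value in stem at stage 21, where 96.8% were above background, which favours a high share elsewhere. In root 34.8% of them were above it, against 34.5% of all tested. Of the 824 rises of at least 2, 66.4% were above it in coleoptile and 44.3% in leaf at stage 13. The falls of rank 1 and 2 share an ID number, as do those of rank 5 and 6, so these are not 10 separate findings. In leaf at stage 23 those of rank 1 and 2 averaged 3.99 and 4.36, while the others were above background. In root 1 was above background, and in flag leaf at stage 49 3 were.

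The fall of rank 1, Ta.23031.1.A1_at, read 2.74, 2.65 and 2.58 at stage 45, against 11.95, 11.76 and 11.79 at stage 21 (difference -9.18, SE 0.88, limma adjusted p 6.77e-11), at least 57.2-fold lower. Its SE is wide beside the stem SDs of 0.08 and 0.10 because the fit shares the spread over all groups, and the SD in leaf at stage 13 was 4.32. It did not return at stage 59 (2.61) or stage 75 (2.59), and coleoptile averaged 11.52. The next fall, Ta.23031.1.A1_x_at, measures related sequence, with 2.82, 2.97 and 2.81 against 11.84, 11.65 and 11.76 in the same order, and is no separate finding.

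Of the 10 falls, 8 stayed below background at both later stages, and 2 came back at 1 of them. The fall of rank 8 read 5.77, 6.89 and 4.79 at stage 45 and 13.84, 13.71 and 13.70 at stage 21, then averaged 10.47 at stage 59 and 4.61 at stage 75. The fall of rank 10 read 3.62, 3.79 and 3.51 at stage 45 and 11, 11.26 and 11.55 at stage 21, then averaged 4.41 at stage 59 and 10.04 at stage 75.

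Some annotated loci repeat the dip seen for CAT1; these and the next were picked after their values were seen. LOC542871 read 8.09, 6.40 and 6.70 at stage 45 against 13.11, 13.27 and 13.48 at stage 21 (difference -6.22, SE 0.27, limma adjusted p 2.28e-20). It averaged 10.06 at stage 59 and 12.55 at stage 75, with 12.93 in leaf at stage 13 and 4.35 in root. Upwards, LOC542849 read 9.12, 8.83 and 8.99 at stage 45 against 3.06, 3.19 and 2.88 at stage 21 (difference 5.94), and held at 8.59 at stage 59 and 9.42 at stage 75. LOC542773 read 10.06, 10.55 and 10.66 at stage 45 against 6.68, 6.59 and 5.54 at stage 21 (difference 4.15), with coleoptile at 10.40 and root at 10.07.

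A few large changes varied strongly between the stage 45 arrays. LOC732714 read 6.41, 10.75 and 9.36 at stage 45 and 4.79, 5.30 and 3.94 at stage 21 in its most changed probe set (difference 4.16, SE 0.67, limma adjusted p 3.72e-06), and 12 of the 14 probe sets with its ID stem rose. LOC542989 read 5.17, 11.87 and 8.17 at stage 45 against 14.10, 14 and 13.93 at stage 21 (difference -5.61, SE 1.16, limma adjusted p 0.000189). Both were lowest on replicate 1 and highest on replicate 2. At stage 45, 305 probe sets had an SD over 1, and the farthest array was replicate 1 for 156 of them and replicate 2 for 118. Stage 21 had 193 such probe sets, with replicate 3 the farthest for 114. Without every probe set whose SD passed 1 at either stage, 7426 calls were made, 3991 higher and 3435 lower.

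Many calls were not switches from absent to present. The background level of 5.99 is the 95th percentile of reporter probe sets, which are made for foreign marker genes. Of the 4170 rises, 800 (19.2%) were below it on all stage 21 arrays and above it on all stage 45 arrays, whereas 2367 were above it on all 6. Of the 3541 falls, 767 (21.7%) were above it on all stage 21 arrays and below it on all stage 45 arrays, and 2012 were above it on all 6. In all, 19846 probe sets (32.5%) were above the level on every stage 45 array and 19567 (32%) on every stage 21 array. RMA sets much of this share, so it gives no count of the transcripts present. Of the 17502 above it on all 6 arrays, 25% were called.

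Probe sets whose IDs share a number usually measure related sequence. They do not always do so, since 1 such number covers 113 probe sets tied to 5 annotated genes, petC among them, with 5 rises and 12 falls. Where at least 2 with the same number (an ID stem) were called, 1178 of 1199 stems (98.2%) had all calls one way. Of 3302 called pairs 3192 (96.7%) had the same sign. The ID stem with the most rises held 39 probe sets, of which 26 rose and 0 fell, by up to 5.77. Another, which includes LOC543184, held 38, of which 19 rose and 1 fell. Counting stems in place of probe sets gave 5883 with at least 1 call.

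Across the whole series, the rises and falls had different distributions among organs. The 4170 rises had medians of 6.61, 8.26, 7.84 and 7.38 over stem stages 21, 45, 59 and 75. Outside stem their medians were highest in root (7.72), embryo (7.63) and endosperm (7.63) and lowest in leaf at stage 13 (6.29). The 3541 falls had medians of 8.69, 6.63, 7.17 and 7.18 over the same stem stages. Outside stem they were highest in leaf at stage 13 (8.10), flag leaf at stage 49 (7.81) and coleoptile (7.80), and lowest in crease (5.25) and root (5.65). All tested probe sets had medians between 4.90 and 5.01 in each of the 16 groups. The levels in stem at stages 45 and 21 follow from the choice of the lists.

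**Figure D4:**
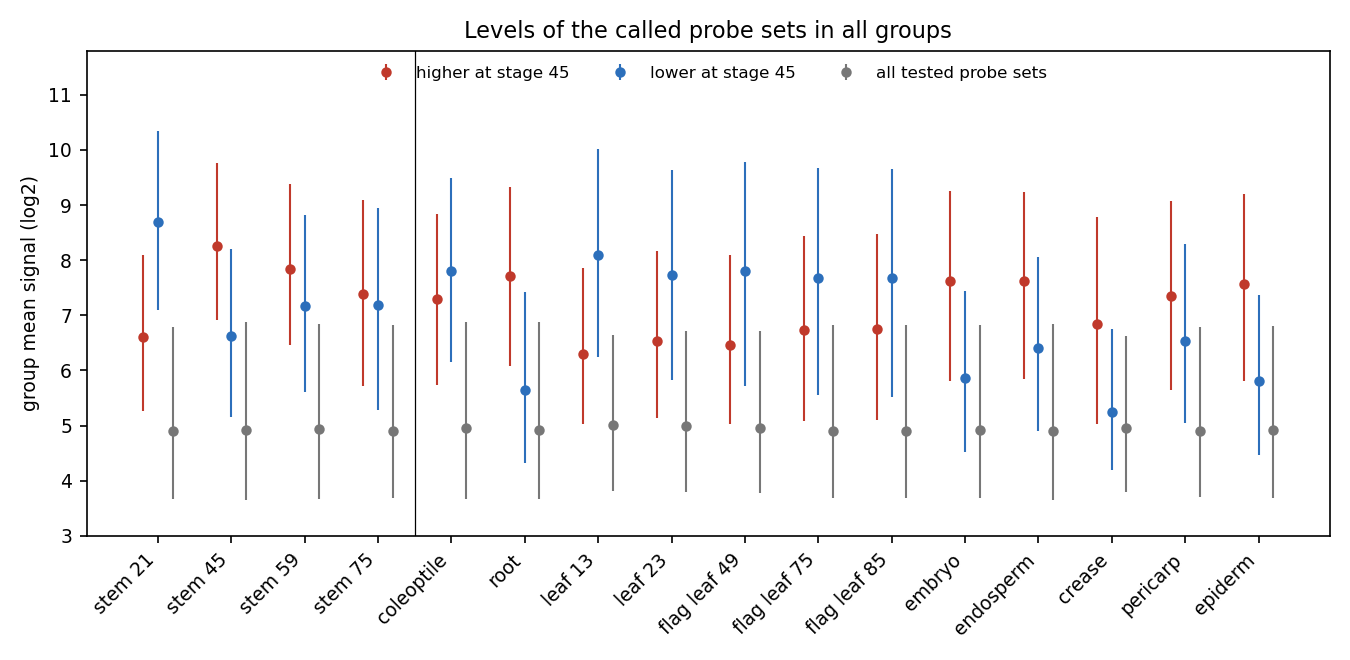
Median and interquartile range (log2) of the group means for the 4170 higher, the 3541 lower and all 61115 tested probe sets in the 4 stem stages and the 12 other groups. The higher set is dimmest in leaves and the lower set dimmest in crease and root.

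The organ in which each probe set was brightest, stem left aside, is given beside the same share of all tested probe sets. For 24.6% of the rises it was embryo (13.9% of all tested), for 18.5% root (9.77%) and for 16% epiderm (8.06%), while it was leaf at stage 13 for 0.911% (11.7%). For the falls it was leaf at stage 13 in 21.3%, coleoptile in 15.7% (3.66% of all tested) and flag leaf at stage 49 in 15.1% (6.57%). Booting stem was brighter than every organ outside stem for 1311 rises (31.4%), and tillering stem for 1521 falls (43%). By a margin of at least 1 these came to 424 rises (10.2%) and 460 falls (13%). The lists were chosen for a high value in that same stem group, so these counts describe the lists and nothing is read from them against the 7.93% and 7.72% of all tested probe sets. Cultivar and RNA extraction differ between stem and root or coleoptile, and their part was not tested.

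The later stem stages lay closer to booting at heading than at milk development. At stage 59, 80.8% of the rises and 83.2% of the falls were within 1 log2 unit of their stage 45 level, against 96.4% of all tested probe sets. At stage 75 this was 49.7% of the rises and 60.9% of the falls, against 86.5%. By then 44.7% of the rises and 32.5% of the falls were within 1 unit of their stage 21 level, against 82.5%. A margin of 1 unit is wide beside a median rise of 1.38. For changes of at least 2, 56.2% of the 824 rises and 70.5% of the 1424 falls were within 1 unit of stage 45 at stage 59, and 23.7% and 57.1% at stage 75.

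Leaf over the nearest interval shows what another organ did as the plants aged. Flag leaf at stage 49 (5 arrays) minus leaf at stage 23 (3 arrays) shares no array with the stem comparison, but leaf position differs as well as stage. The stem change minus the leaf change was called for 8580 probe sets (14%), 4312 higher (7.06%) and 4268 lower (6.98%). Of the 4170 stem rises, 3148 (75.5%) rose more in stem than in leaf and 4 the reverse, and of the 3541 stem falls, 3047 (86%) fell more in stem and 1 the reverse. The stem values are part of this difference, so the shares have no test of their own. The leaf values are separate. In leaf the median change of the rises was -0.01 and that of the falls 0.10, beside 0.01 for all probe sets, and over all 61115 probe sets the stem and leaf changes had a Pearson correlation of 0 and a Spearman correlation of -0.04.

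**Figure D5:**
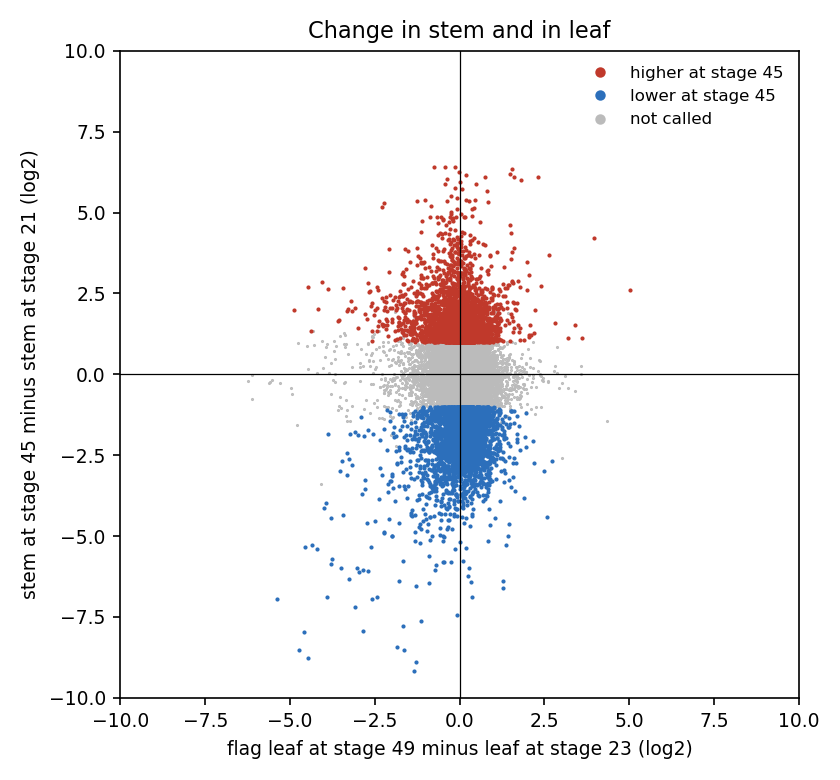
Difference between stem at stage 45 and stem at stage 21 (vertical axis, log2) against flag leaf at stage 49 minus leaf at stage 23 (horizontal axis, log2), with 1 point per tested probe set. The called stem changes spread along the vertical axis, and their leaf changes centre near 0, with medians of -0.01 for rises and 0.10 for falls.

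The pair of probe sets with the largest fitted positive difference from leaf had 1 ID stem. The first read 8.72, 9.08 and 9.28 in stem at stage 45 and 3.75, 3.88 and 3.61 at stage 21, while it averaged 3.44 in flag leaf at stage 49 and 5.67 in leaf at stage 23, below background in both means (difference of changes 7.51, SE 0.76, limma adjusted p 6.01e-10). The stem change itself was 5.28, and the rest of the 7.51 comes from the leaf means, with an SD of 1.84 in leaf at stage 23, so its size is uncertain. The largest negative one was another transient dip. It read 4.67, 4.66 and 4.61 in stem at stage 45 against 11.33, 11.16 and 11.25 at stage 21, then averaged 10.34 at stage 59 and 12.16 at stage 75. In leaf it was bright at both stages, with 13.29 in flag leaf at stage 49 and 12 in leaf at stage 23 (difference of changes -7.89, SE 0.66, limma adjusted p 5.87e-12).

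Named genes separated from leaf too. The difference of changes was 3.20 for the 3' probe set of Sucsyn, 1.09 for the middle set of Ubiquitin, 1.28 for TUBA, -3.15 for CAT1, -2.12 for FBP and -1.46 for GAPN, all called in limma with adjusted p at most 0.000819. For XTH it was 1.65 and did not pass (SE 0.65, limma adjusted p 0.0669).

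Coleoptile, the sheath that lifts the first shoot through the soil, is another organ that grows by elongation. Coleoptile minus leaf at stage 13 shares no array with the stem comparison, and called 9507 probe sets (15.6%), 6217 higher (10.2%) and 3290 lower (5.38%). Of the 4170 stem rises, 1548 were higher in coleoptile, which is 37.1% of the rises and 24.9% of the coleoptile list, and 269 (6.45%) were lower there. Of the 3541 stem falls, 1064 were lower in coleoptile, 30% of the falls and 32.3% of the coleoptile list, and 560 (15.8%) were higher. These shares and those of all tested probe sets are not at equal signal. In coleoptile 71.3% of the rises and 76.7% of the falls were above background, against 35.1% of all tested, and dim probe sets are seldom called. The overlap at equal signal was not tested.

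Over all 61115 probe sets the stem change and the coleoptile difference had a Pearson correlation of 0.24 and a Spearman correlation of 0.26, given as a description across probe sets, which are not independent. Against leaf at stage 13 minus root, which uses the same leaf arrays, the stem change had a stronger correlation, with Pearson -0.46 and Spearman -0.38. The 10 largest stem falls were mixed in the coleoptile comparison, where 2 were called higher (3.40 and 2.83) and 2 lower (-1.16 and -1.93), with all of them above background in coleoptile. Coleoptile came from the cultivar AC Alta with RNA from an ultracentrifugation method and leaf from AC Certa with a column kit, so organ, cultivar and extraction cannot be told apart in that comparison.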

How the data were processed

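The authors deposited a single table of log2 values, made with RMA per the submitters' processing notes. Which software and which background step they used is not given in the sources used here. No note states a log base, and 2 was assumed from the range of the values. Of 61290 probe sets, the 111 AFFX controls and 64 reporters were left out, and 61115 were tested. Arrays give no read depth, and the number of arrays limits the precision. No sequence of a probe set was used here.

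Contrasts were fitted with limma 3.58.1 (R 4.3.3), with 1 mean per group over all 48 arrays in 16 groups (32 residual and 5.59 prior degrees of freedom), two-sided, with Benjamini-Hochberg adjustment over all tested probe sets. The p-values are those of these contrasts. A second fit added 25 probe sets of 8 control genes. The procedure was tested on simulated data. Genes were named from platform annotation dated 2007.

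Probe sets named in the text were the 10 largest rises and the 10 largest falls without overlap of the stages, the largest stem minus leaf differences, the control genes and members of gene lists. By ID, 2 rises and 2 falls are given. Product symbols and loci were added after the annotation and values were seen. The comparisons, lists and rule were chosen with earlier results of these data known.

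A bound on a fold sets each value below background at the background level. The stem arrays had medians of 4.91 to 4.94 and 34.1% to 34.8% of probe sets above background. Same-numbered replicates of the 2 stages did not deviate together (r = -0.11, 0.12 and -0.08 over 17502 probe sets), so they were not treated as pairs. Alternatives changed the scaling, filters, variance model, thresholds, arrays in the fit and background level.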

Additional observations from a re-analysis of the deposited data

Results flagged for a closer look

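The change between stages differed between stem and leaf, by the limma contrast of stem change minus leaf change at an adjusted p under 0.05 and a size of at least 1, for 35 of the 67 probe sets described above, beside 14% of all tested. Of the 35, 23 had been chosen as the largest stem changes or stem minus leaf differences, which favours the call, and the other 12 came from 44 named otherwise. For the 10 largest stem rises in order the difference of changes was 6.84, 7.18, 6.52, 4.80, 6.29, 4.71, 5.99, 5.35, 4.51 and 3.80. For the 10 largest falls in order it was -7.82, -7.59, -4.30, -3.79, -6.88, -6.57, -3.38, -5.09, -6.09 and -6.50. The pair with the largest positive difference gave 7.51 and 7.45, and the largest negative was -7.89. Among named genes it was 1.07 and 1.29 for the 3' and 5' probe sets of G-6-PDH. Sucsyn gave 3.20, 2.48 and 3.72 for its 3', 5' and middle sets, and Ubiquitin 1.10 and 1.09 for its 3' and middle sets. It was 1.33 for SAHH, 1.28 for TUBA, -2.12 for FBP, -3.15 for CAT1 and -1.46 for GAPN.

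In flag leaf at stage 49, which has 5 arrays, 1 array stood apart from the other 4 by Dixon's criterion for 3 of these probe sets, a gap that chance gives in about 1 group in 20. The fall of rank 9 read 6.70 on that array and 7.91 to 8.16 on the others. Sucsyn, middle set, read 7.04 and 8.18 to 8.55 on the others, and CYP86-TA, 5' set, read 7.72 and 7.38 to 7.45 on the others. One reporter probe set, meant for a foreign gene, was bright on all arrays and read at least 14.04 on the 6 stem arrays.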

How the results depend on the processing

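The stem comparison called 7711 probe sets, and between 6947 and 8541 under other scalings, filters, variance models, array weights and a stricter p, the fewest when probe sets had to be above background on at least 2 of the arrays compared. Leaving out 1 array at a time gave 7493 to 7754 calls, 4001 to 4224 higher and 3427 to 3553 lower. With the replicate number as a block it was 7806, 4190 higher and 3616 lower; the contrast with leaf then called 7477 and that of coleoptile with leaf 9209. Without a minimum difference 16103 were called, 9486 higher and 6617 lower. The same gave 13245 calls and 7185 higher for the contrast with leaf, and 22505 calls, 11257 higher and 11248 lower, for coleoptile. Spike centring moved the median of the contrast with leaf by 0.52 and gave 12917 calls, 10499 higher and 2418 lower (81.3% higher); for coleoptile it moved the median by 0.48 and gave 10977 higher and 1704 lower (86.6% higher). Leaving out 1 array gave 8159 to 9519 calls for the contrast with leaf (4043 to 5216 higher, 4063 to 4530 lower), the most without replicate 1 of leaf 23, and 8521 to 10169 for coleoptile (5407 to 6681 higher, 3114 to 3656 lower). With the 99th percentile of the reporters as background, 14.05 because of the bright reporter, 7 rises and 5 falls crossed it. Without that reporter, a choice made after seeing the data, the 90th, 95th and 99th percentiles gave 528, 751 and 887 rises and 550, 720 and 857 falls. Without probe sets shared between genes (s_at and x_at) 94.6% of pairs had the same sign. At a difference of at least 2, 40.9% of rises and 56.3% of falls were brighter in stem at stage 45 and stage 21, in that order, than in every organ outside stem, which the stricter choice itself favours. For single probe sets 995 alternatives kept the call and sign, 10 lost the call, 5 gained it and 0 reversed. The losses and gains were in Ubiquitin, G-6-PDH, SAHH, GAPN and TUBA, all near the minimum; besides those given above, the 5' set of Ubiquitin gave 1.04 with quantile normalisation and 1.10 with spike centring, and the middle set of G-6-PDH gave 1.13 with spike centring and 1.06 without replicate 2 of stage 45.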
